A study of Mus musculus with 38 samples.

Results

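The 8 genes described here, Nebl, Obp2a, Pla1a, Prss8, Wfdc2, Moxd1, Fgfrl1 and Zmynd8, were picked as transcripts of mouse liver that stood apart from controls after 30 days of feeding and did so differently under 3 compounds. They were found by their symbol in the array annotation and are 8 of 18194 genes with a probe set of their own, represented by 15 of 34958 probe sets. They were selected on their measured day 30 differences from controls, so those differences are given below as a description with no test. Whether the label under which they were grouped, late and compound-specific, holds was not tested, since changes were not compared between days or compounds. Some values did not follow it. Nebl, Wfdc2 and 1 of 5 probe sets of Zmynd8 already passed the test after 4 days of propiconazole, where 13.9% of all genes were called. The dimmer Fgfrl1 probe set passed there too, a call that was lost when some single arrays were left out. With the spread taken from the 6 arrays compared, 0 of the 8 genes passed. Nebl was higher than controls under all 3 compounds at day 30. The day 30 difference of the brighter Fgfrl1 probe set was not shared by the other.

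All livers came from male CD-1 mice, an outbred stock, aged 6 to 8 weeks, with no gene altered. In 1 experiment mice ate feed with propiconazole at 2500 ppm, feed with triadimefon at 1800 ppm (spelled tridimefon in the labels) or control feed, with 3 mice per group at 4 days and 3 at 30 days. In the other experiment mice ate feed with phenobarbital at 850 ppm or their own control feed, with 5 mice per group at each day. Mean daily intake was 349.6 ± 46.7 mg/kg of propiconazole, 257.1 ± 33.5 mg/kg of triadimefon and 97.2 ± 5.9 mg/kg of phenobarbital. The doses were not matched, so values under different compounds are set side by side and not compared. The experiments had separate controls, and experiment and batch cannot be told apart. Both conazoles share the same control arrays, so their changes are not independent of each other.

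Propiconazole and triadimefon are triazole fungicides, which block the fungal enzyme that demethylates lanosterol. Phenobarbital is the barbiturate long used to switch on CAR, a nuclear receptor of hepatocytes, and triazoles are also known to act on CAR and the related receptor PXR. Their best known targets there are cytochrome P450 genes. The 8 genes studied here come from different families: they encode an actin-binding protein, a lipid-binding carrier, a phospholipase, a membrane protease, a protein with protease inhibitor domains, a copper enzyme, a growth factor receptor and a chromatin reader.

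Levels are log2(intensity + 16) after quantile normalization of all 38 arrays, so 4 is the lowest possible value, and changes on this scale understate those of dim genes. A level of 6.13, the 95th percentile of 39 olfactory receptor genes, was taken as background, and 9314 of 17729 genes tested (52.5%) had a mean above it. Of the 8 genes, 5 had a mean above background, while Nebl, Prss8 and Moxd1 exceeded it in some groups. All 7 hepatocyte markers were above background on all arrays, with a summed intensity of 51790 to 59093. Propiconazole day 4 replicate 2 stood apart: its Gapdh signal was 6.39 log2 units higher at the 3′ than at the 5′ end, against -0.37 to 0.22 on the other 37 arrays. The changes of the 8 genes in that group are therefore also given without it.

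At day 30 of propiconazole, 6 of the 8 genes met the threshold used for calls (limma, adjusted p under 0.05), against 10.8% of all genes. For triadimefon the count was 3 of 8, against 5.4% of all genes, and for phenobarbital 2 of 8, against 0.479%. Since these contrasts chose the genes, nothing is read from those counts. The arrays of treated and control livers did not overlap for 7 genes under propiconazole (24.4% of all genes), 6 under triadimefon (21.1%) and 3 under phenobarbital (4.21%).

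**Figure D1:**
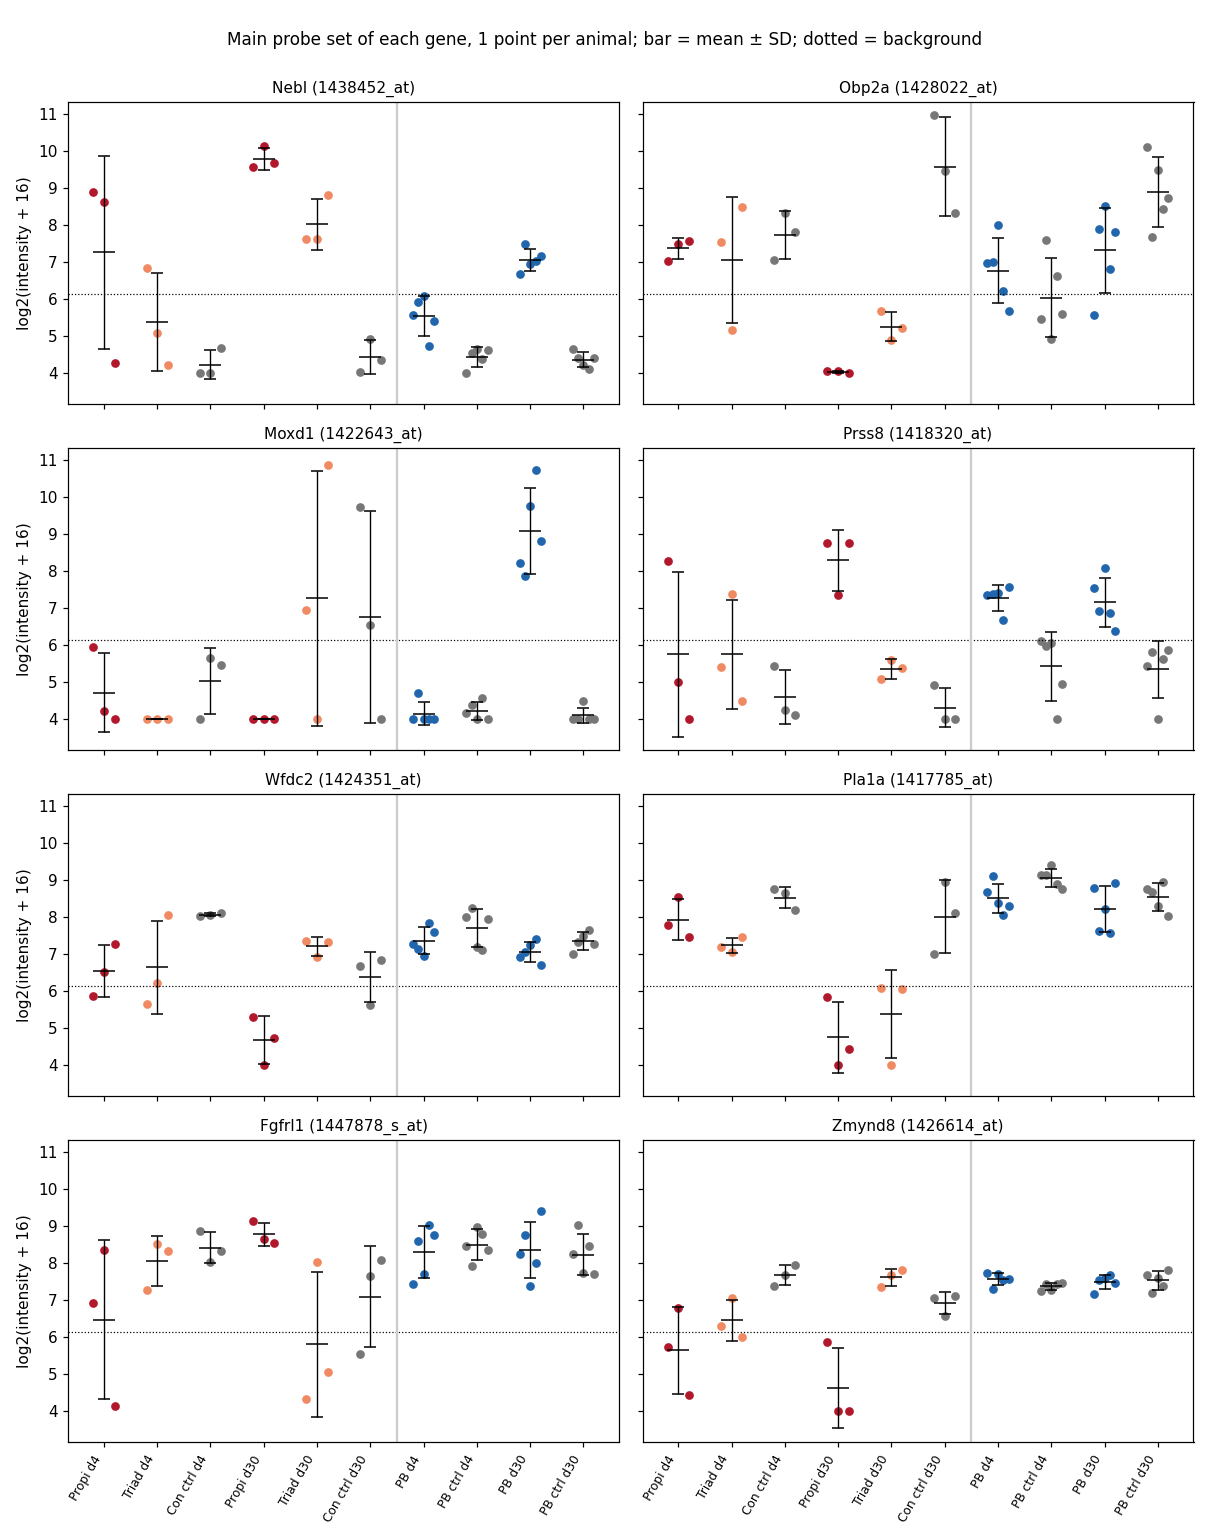
Level of each gene on each array, log2(intensity + 16), for its brightest probe set, with 1 point per mouse and a bar at each group mean. Groups are propiconazole (Propi), triadimefon (Triad), conazole controls (Con ctrl), phenobarbital (PB) and phenobarbital controls (PB ctrl) at day 4 (d4) and day 30 (d30), and the dashed line is background at 6.13. Nebl lies above background on every treated array of day 30 and below it on every control array, and Moxd1 is above background on all 5 phenobarbital arrays of day 30.

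Nebl, on chromosome 2 (17342673 to 17734949, GRCm38.p6), encodes nebulette, an actin-binding protein known from the Z-discs of heart muscle that also has a short LIM-domain form in other tissues. At day 30 it stood above background and higher than its controls under each compound. Its level was 9.58, 10.14 and 9.67 on propiconazole arrays, 7.63, 7.62 and 8.82 on triadimefon arrays and 4.02, 4.92 and 4.34 on conazole control arrays. In the phenobarbital experiment it was 6.67, 7.48, 6.96, 7.04 and 7.16 on phenobarbital arrays and 4.64, 4.40, 4.23, 4.12 and 4.42 on control arrays. No treated array overlapped its controls, and all controls lay below background. The change was 5.37 ± 0.68 (SE) for propiconazole, at least 12.7-fold. It was 3.60 ± 0.68 for triadimefon, at least 3.71-fold, and 2.70 ± 0.52 for phenobarbital, at least 1.90-fold.

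At day 4 Nebl was 8.91, 8.63 and 4.26 on propiconazole arrays and 4, 4 and 4.68 on conazole control arrays. A pair of the 3 treated mice were thus far above the controls and the other was within their range. The mean rose by 3.04 ± 0.68, at least 2.19-fold (limma, adjusted p = 0.0033), and by 2.36 without replicate 2 (limma, adjusted p = 0.035). The rise did not pass with the spread taken from the 6 arrays compared (limma, adjusted p = 0.51), and its exact permutation test gave two-sided p = 0.2. Triadimefon arrays of day 4 read 6.83, 5.09 and 4.22, a change of 1.15 ± 0.68 that did not pass (limma, adjusted p = 0.38). Phenobarbital arrays read 5.56, 5.92, 6.09, 4.72 and 5.40, against 4, 4.53, 4.64, 4.39 and 4.61 on controls. They did not overlap, but all were below background, and the change of 1.10 ± 0.52 did not pass across all genes (limma, adjusted p = 0.49). It passed when the spread was taken from the 10 arrays compared (limma, adjusted p = 0.048), and its exact permutation test gave the smallest p that 5 against 5 allow (two-sided p = 0.0079).

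The second Nebl probe set, 1451846_at, showed the same order of groups. At day 30 it read 6.92, 6.82 and 6.14 on propiconazole arrays, a change of 2.61 ± 0.30 and at least 1.41-fold. Triadimefon (5.31, 5.29 and 5.79) and phenobarbital (4.74 to 5.17) arrays were above every control array but below background, with changes of 1.44 ± 0.30 and 0.99 ± 0.23. At day 4 of propiconazole it rose by 0.90 ± 0.30 (limma, adjusted p = 0.043), which rested on replicate 1, the 1 array above background: without it the change was 0.23 (limma, adjusted p = 0.45), and without replicate 2 it was 1.11 (limma, adjusted p = 0.031). The call was also lost without any 1 control array (limma, adjusted p = 0.071 to 0.10). The remaining probe set, 1439897_at, stayed below background in every group, with a change of 0.39 ± 0.15 for propiconazole at day 30. Marker genes of heart and skeletal muscle, of which heart is known for nebulette, were all below background on average. At day 30 their summed intensity on every propiconazole array lay within the range of the conazole controls, 111 to 442, and it was 13 to 68 on phenobarbital arrays and 17 to 6175 on their controls. At day 4 it reached 3530 on propiconazole arrays and 8464 on conazole controls. The part of muscle cells in the Nebl values was not tested.

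Obp2a, also on chromosome 2 (25697577 to 25703326), encodes an odorant-binding protein of the lipocalins, small secreted carriers of hydrophobic molecules. Its RefSeq upstream sequence (GRCm38.p6, chr2:25699824-25700073, + strand), the 250 bases before a transcript start, is shown, as is that of Moxd1 further on, because Obp2a under propiconazole had the most negative change of the 8 genes at day 30 and Moxd1 under phenobarbital one of the most positive, and neither passed the test at day 4. Capitals mark a TATA box, TATAAA, and the reverse strand match TGACCT of AGGTCA, a half-site bound by many nuclear receptors.
Obp2a: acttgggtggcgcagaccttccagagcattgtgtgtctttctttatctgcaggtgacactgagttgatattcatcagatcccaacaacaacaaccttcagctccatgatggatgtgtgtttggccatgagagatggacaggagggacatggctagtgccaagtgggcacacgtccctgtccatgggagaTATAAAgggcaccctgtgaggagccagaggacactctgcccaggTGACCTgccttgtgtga
TATAAA stood 61 bases and TGACCT 17 bases before the start. Over both strands of 32851 mouse promoters of this length, TATAAA was found in 12.4% and AGGTCA in 14%. Among the 14 transcript starts of the 6 genes with a promoter entry, TATAAA was found at 1 and AGGTCA at 4. A match describes letters and is not evidence of binding.

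In livers of day 30, Obp2a was well above background in both control groups and below background under both conazoles. It read 4.05, 4.05 and 4 on propiconazole arrays, 5.67, 4.89 and 5.21 on triadimefon arrays and 10.97, 9.46 and 8.32 on conazole control arrays. Every conazole array lay below every control array. The change was -5.55 ± 0.77 for propiconazole and -4.32 ± 0.77 for triadimefon, each at least 10.9-fold lower, a bound that background sets alike for both. Phenobarbital arrays read 5.56, 7.89, 8.51, 6.81 and 7.81, and their controls 10.12, 7.68, 9.49, 8.43 and 8.73. These overlapped, with a change of -1.57 ± 0.60, or 2.97-fold lower. A marker list of another tissue, 3 pancreas acinar cell genes, was also lower under both conazoles. On conazole controls the summed intensity was 1424 to 2156. For these 3 genes it was 597 to 690 on propiconazole arrays and 538 to 929 on triadimefon arrays. Of these Cela1 was called lower under both conazoles, Ctrb1 was at 0 on all conazole-treated arrays, and Cpa1 was at 0 on those and the control arrays. Only 1 of the 3 had a mean above background. The sum was below conazole controls at day 4 as well, where none of the 3 was called. It was 556 to 1579 on propiconazole arrays, 714 to 1566 on triadimefon arrays and 1652 to 1882 on conazole controls. In the phenobarbital experiment the sum at day 30 was 2242 to 2749 on phenobarbital arrays and 2170 to 2498 on controls. At day 4 it was 1355 to 2565 on phenobarbital arrays and 1458 to 23520 on their controls. The part of pancreas cells in the Obp2a and Pla1a values was not tested. In bulk liver, fewer expressing cells and less RNA per cell cannot be told apart.

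At day 4 no compound changed Obp2a past the test. Its levels were 7.04, 7.49 and 7.58 under propiconazole, 7.55, 5.17 and 8.48 under triadimefon and 7.06, 8.33 and 7.82 in conazole controls. The changes were -0.37 ± 0.77, with a 95% interval of -1.94 to 1.20 (limma, adjusted p = 0.82), and -0.67 ± 0.77, with an interval of -2.24 to 0.90 (limma, adjusted p = 0.72). The propiconazole change was -0.43 without replicate 2 (limma, adjusted p = 0.86), and the triadimefon change turned to 0.28 without triadimefon replicate 2 (limma, adjusted p = 0.95). Phenobarbital gave 0.73 ± 0.60 (limma, adjusted p = 0.85). Levels in control livers also differed between the days, but the day 30 control arrays are those against which the gene was chosen. The p-values of this difference are therefore not independent of that choice. Phenobarbital controls of day 30 averaged 8.89 ± 0.95 and those of day 4 averaged 6.04 ± 1.07 (SD, n = 5 each), with no overlap, a difference of 2.85 ± 0.60 or 7.20-fold. It did not pass across all genes (limma, adjusted p = 0.18), where 0 genes were called, although the exact permutation test of this 1 gene gave its smallest possible value (two-sided p = 0.0079). Conazole controls differed by 1.85 ± 0.77 in the same direction (limma, adjusted p = 0.17).

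Pla1a, on chromosome 16 (38396117 to 38433191), encodes a secreted phospholipase that acts on phosphatidylserine. In livers of day 30 it was below background under both conazoles and overlapped its controls under phenobarbital. It read 5.83, 4 and 4.42 on propiconazole arrays, 6.08, 4 and 6.05 on triadimefon arrays and 6.99, 8.96 and 8.10 on conazole control arrays. All 6 conazole arrays were below background and all 3 controls above it. The change was -3.27 ± 0.48 for propiconazole and -2.64 ± 0.48 for triadimefon, each at least 3.69-fold lower. Phenobarbital arrays ran from 7.58 to 8.91 and controls from 8.02 to 8.94, a change of -0.31 ± 0.37.

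At day 4 Pla1a was still above background on all arrays. Triadimefon arrays (7.19, 7.07 and 7.45) lay below all conazole controls (8.75, 8.64 and 8.20), but the change of -1.29 ± 0.48 did not pass (limma, adjusted p = 0.13). Propiconazole arrays read 7.78, 8.55 and 7.46, a change of -0.60 ± 0.48 (limma, adjusted p = 0.44), or -0.91 without replicate 2 (limma, adjusted p = 0.31). Phenobarbital gave -0.56 ± 0.37 (limma, adjusted p = 0.74).

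**Figure D2:**
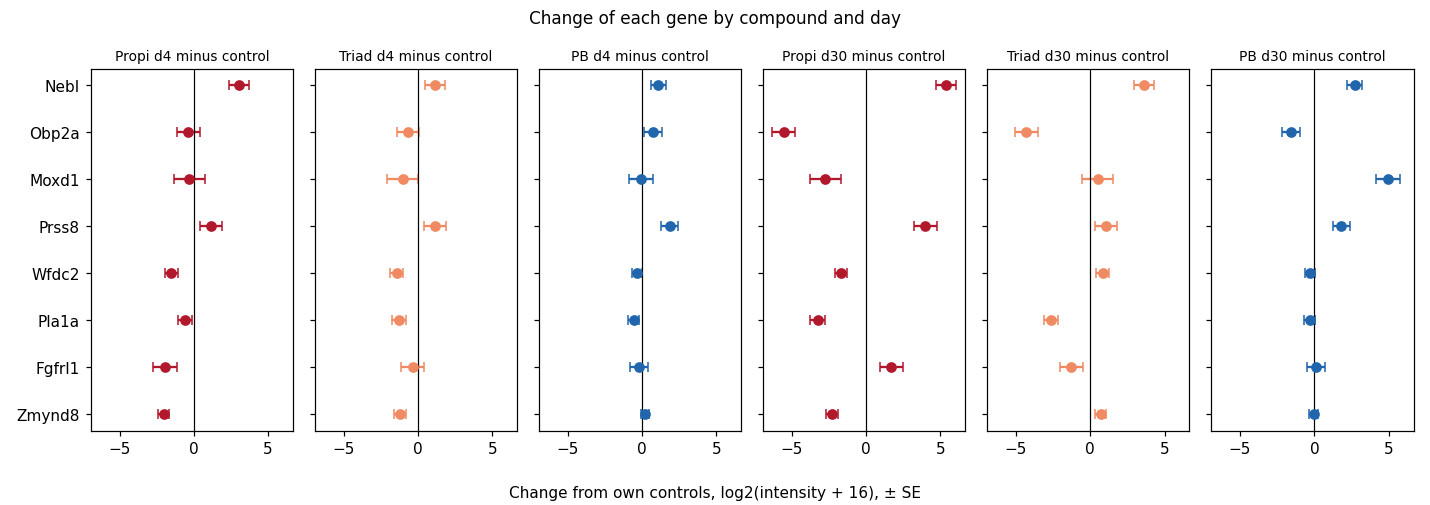
Change of each gene from the controls of its own experiment and day, on the log2(intensity + 16) scale, with bars of 1 standard error, for the brightest probe set. At day 30 Obp2a is -5.55 under propiconazole and -4.32 under triadimefon, while Moxd1 is 4.98 under phenobarbital.

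Prss8, on chromosome 7 (127925717 to 127930149), encodes prostasin, a membrane-anchored serine protease known for activating the epithelial sodium channel. At day 30 it read 8.75, 7.35 and 8.77 on propiconazole arrays, 5.07, 5.60 and 5.38 on triadimefon arrays and 4.91, 4 and 4 on conazole control arrays. Propiconazole livers were above background and the other groups of that experiment were not. The change was 3.99 ± 0.75 for propiconazole, at least 4.46-fold, and 1.04 ± 0.75 for triadimefon, with a 95% interval of -0.48 to 2.56. Phenobarbital arrays read 7.55, 6.92, 8.08, 6.86 and 6.39, all above controls at 5.44, 5.80, 4, 5.63 and 5.88, a change of 1.81 ± 0.58 and at least 2.04-fold.

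Phenobarbital arrays also stood above their controls in Prss8 at day 4. They read 7.35, 7.39, 7.41, 6.67 and 7.58 under phenobarbital, against 6.11, 5.97, 6.07, 4 and 4.96 in controls. The groups did not overlap, and the change was 1.86 ± 0.58, at least 2.21-fold. It did not pass in the model over all 38 arrays (limma, adjusted p = 0.16), passed when the spread was taken from the 10 arrays compared (limma, adjusted p = 0.043), and had the smallest exact permutation p that 5 against 5 allow (two-sided p = 0.0079). Propiconazole arrays of day 4 were scattered at 8.27, 5 and 4, against 5.44, 4.24 and 4.10 in controls, a change of 1.16 ± 0.75 (limma, adjusted p = 0.32). It was 1.54 without replicate 2 (limma, adjusted p = 0.27) and turned to -0.09 without replicate 1 (limma, adjusted p = 0.98). Triadimefon arrays read 5.40, 7.37 and 4.49, also a change of 1.16 ± 0.75 (limma, adjusted p = 0.44).

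Wfdc2, on chromosome 2 (164562715 to 164568510), encodes a small secreted protein with WAP domains, a fold found in protease inhibitors. Under propiconazole it was lower at both days, and conazole controls read lower at day 30 than at day 4. At day 30 it read 5.31, 4 and 4.72 on propiconazole arrays, 7.36, 6.92 and 7.34 on triadimefon arrays and 6.69, 5.61 and 6.83 on conazole control arrays. All propiconazole arrays were below the controls and all triadimefon arrays above them. The change was -1.70 ± 0.42 for propiconazole, at least 1.18-fold lower with 2 of 3 control arrays above background. For triadimefon it was 0.83 ± 0.42, or 1.78-fold higher. Phenobarbital arrays (6.70 to 7.40) overlapped their controls (7 to 7.66), with a change of -0.28 ± 0.33.

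At day 4 Wfdc2 read 5.86, 6.51 and 7.26 on propiconazole arrays and 8.04, 8.05 and 8.12 on conazole control arrays, with no overlap. It fell by 1.52 on the log2 scale, with an SE of 0.42, or 2.88-fold (limma, adjusted p = 0.016). Without propiconazole replicate 2 the change was -1.51 (limma, adjusted p = 0.044), and without replicate 1 it was -1.18 and no longer passed (limma, adjusted p = 0.069). Nor did it pass with the spread taken from the 6 arrays compared (limma, adjusted p = 0.37). Its exact permutation test gave the smallest p that 3 against 3 allow (two-sided p = 0.1). Triadimefon arrays of day 4 read 5.66, 6.22 and 8.05, a change of -1.43 ± 0.42 just outside the threshold (limma, adjusted p = 0.053). It passed without triadimefon replicate 3 (-2.13, limma, adjusted p = 0.0015) and when propiconazole replicate 2, which enters the shared spread, was left out (limma, adjusted p = 0.039). In conazole controls, Wfdc2 averaged 6.38 ± 0.67 at day 30 and 8.07 ± 0.04 at day 4 (SD, n = 3 each). It was 1.69 lower at day 30, with an SE of 0.42 (limma, adjusted p = 0.015). The day 30 controls are the arrays against which the gene was chosen, so this p-value is not independent of that choice. The difference did not pass without control replicate 2 of day 30 (-1.31, limma, adjusted p = 0.12) or on the values as deposited (-1.27, limma, adjusted p = 0.078). In phenobarbital controls the difference was -0.36 ± 0.33 (limma, adjusted p = 1).

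Moxd1, on chromosome 10 (24223517 to 24302783), encodes a copper-dependent monooxygenase related to dopamine beta-hydroxylase. Its upstream sequence (RefSeq, GRCm38.p6, chr10:24223267-24223516, + strand) is shown with capitals at a match of TTCNNNGAA, the GAS element bound by STAT factors.
Moxd1: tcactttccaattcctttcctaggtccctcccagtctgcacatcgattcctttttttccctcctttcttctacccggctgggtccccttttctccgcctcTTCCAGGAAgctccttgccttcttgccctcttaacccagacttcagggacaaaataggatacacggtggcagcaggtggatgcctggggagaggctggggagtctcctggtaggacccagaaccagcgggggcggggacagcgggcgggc
The match stood 150 bases before the start. TTCNNNGAA was found in 7.02% of the 32851 promoters and at 1 of the 14 starts of these genes. G and C made up 58.4% of the Moxd1 window and 52.4% of the Obp2a window.

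At day 30 Moxd1 read 8.21, 7.88, 9.77, 10.73 and 8.82 on phenobarbital arrays and 4.01, 4, 4.48, 4 and 4 on their controls. All 5 treated mice were above background and all 5 controls below it, and the change was 4.98 ± 0.81, at least 7.72-fold. In the conazole experiment the gene varied widely among mice of a group. It read 4, 4 and 4 on propiconazole arrays, 6.94, 4 and 10.86 on triadimefon arrays and 9.74, 6.55 and 4 on control arrays. Among both control and triadimefon mice, 1 was thus at the lowest possible value and 1 was far above background. The change was -2.76 ± 1.05 for propiconazole, at least 1.55-fold lower with 2 of 3 controls above background. It was -1.28 without control replicate 1 and -4.15 without control replicate 3. For triadimefon it was 0.50 ± 1.05 and turned to -1.30 without triadimefon replicate 3 and -0.88 without control replicate 3, against 2.14 without triadimefon replicate 2 and 1.99 without control replicate 1.

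At day 4 Moxd1 was below background on every array of all 5 groups, with a highest level of 5.94 on a propiconazole array. The changes were -0.31 ± 1.05 for propiconazole, -1.03 ± 1.05 for triadimefon and -0.08 ± 0.81 for phenobarbital, and none passed (limma, adjusted p = 0.91, 0.68 and 1). The propiconazole change was -0.06 without replicate 2 (limma, adjusted p = 1). Between conazole controls of day 30 and day 4 the difference was 1.74 ± 1.05 (limma, adjusted p = 0.39).

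Fgfrl1, on chromosome 5 (108694229 to 108706950), encodes a fibroblast growth factor receptor that lacks the tyrosine kinase domain of its relatives. On its brighter probe set, 1447878_s_at, it read 9.14, 8.66 and 8.54 on propiconazole arrays of day 30, 4.33, 8.02 and 5.05 on triadimefon arrays and 5.54, 7.65 and 8.09 on conazole control arrays. Propiconazole arrays were all above the controls, while triadimefon arrays overlapped them. The change was 1.69 ± 0.78 for propiconazole, or 3.22-fold higher, and -1.29 ± 0.78 for triadimefon. The propiconazole change was 0.91 without control replicate 1 and 2.19 without control replicate 3. The triadimefon change was -2.40 without its replicate 2. Phenobarbital gave 0.13 ± 0.61.

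The other Fgfrl1 probe set, 1451912_a_at, did not show the difference. At day 30 it read 7.01, 6.81 and 7.63 on propiconazole arrays, 6.21, 7.28 and 6.22 on triadimefon arrays and 7.21, 6.67 and 6.80 on control arrays. The changes were 0.26 ± 0.45 for propiconazole, -0.32 ± 0.45 for triadimefon and 0.12 ± 0.35 for phenobarbital. At day 4 of propiconazole both probe sets were below all controls on some arrays. These were replicates 1 and 3 for the brighter one and replicates 2 and 3 for the other, so only replicate 3 was low on both. The brighter one read 6.92, 8.36 and 4.13, against 8.87, 8.04 and 8.33 in controls, a change of -1.94 ± 0.78 that did not pass (limma, adjusted p = 0.094) and that passed without replicate 2 at -2.89 (limma, adjusted p = 0.021). The other read 7.80, 4.03 and 6.44, against 7.77, 7.76 and 7.60, and fell by 1.62 with an SE of 0.45 (limma, adjusted p = 0.018), its lowest value lying on the array with the wide Gapdh difference. Without that array, replicate 2, the change was -0.59 (limma, adjusted p = 0.23), and the call was also lost without control replicate 1 or 2 (limma, adjusted p = 0.054 and 0.052). The mean over both probe sets changed by -1.78 (limma, adjusted p = 0.0081).

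**Figure D3:**
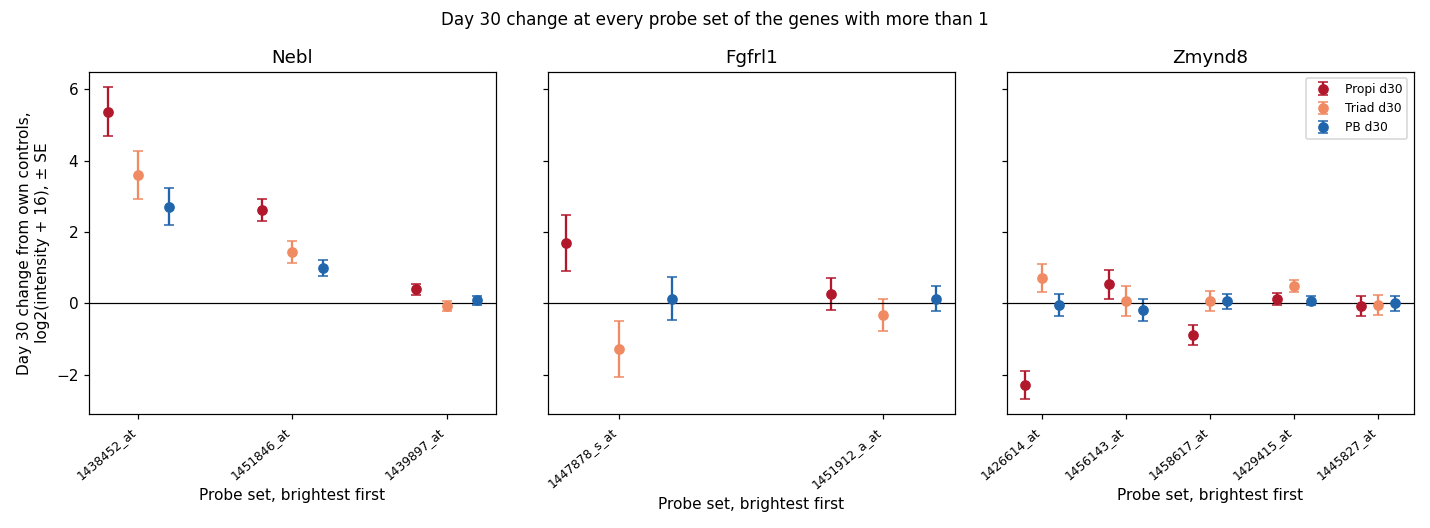
Change from own controls at day 30 for every probe set of the 3 genes with more than 1, Nebl, Fgfrl1 and Zmynd8, on the log2(intensity + 16) scale with bars of 1 standard error. For Fgfrl1 under propiconazole the probe sets read 1.69 and 0.26, and for Zmynd8 they spread from -2.29 to 0.53.

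Zmynd8, on chromosome 2 (165784152 to 165898981), encodes a protein that reads histone marks through several domains and works with histone demethylases. On its brightest probe set, 1426614_at, it read 5.88, 4 and 4 on propiconazole arrays of day 30, 7.36, 7.68 and 7.81 on triadimefon arrays and 7.06, 6.57 and 7.12 on conazole control arrays. Propiconazole arrays were below background and triadimefon arrays above all controls. The change was -2.29 ± 0.39 for propiconazole, at least 1.72-fold lower, and 0.70 ± 0.39 for triadimefon, or 1.63-fold higher. Phenobarbital arrays (7.16 to 7.67) overlapped their controls (7.19 to 7.82), with a change of -0.05 ± 0.30.

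On the same probe set Zmynd8 was already lower at day 4 of propiconazole, where it read 5.72, 6.78 and 4.42, against 7.39, 7.68 and 7.94 in conazole controls. It fell by 2.03 with an SE of 0.39, or 4.09-fold (limma, adjusted p = 0.00086), and by 2.60 without replicate 2 (limma, adjusted p = 6.8e-05). The fall did not pass with the spread taken from the 6 arrays compared (limma, adjusted p = 0.43). Its exact permutation test gave the smallest p that 3 against 3 allow (two-sided p = 0.1). Triadimefon arrays (6.30, 7.07 and 6.00) were also below all controls, but the change of -1.21 ± 0.39 did not pass (limma, adjusted p = 0.072). It passed without triadimefon replicate 2 (-1.52, limma, adjusted p = 0.046) and with propiconazole replicate 2 left out of the shared spread (limma, adjusted p = 0.024). Phenobarbital gave 0.20 ± 0.30 (limma, adjusted p = 0.99). The other 4 Zmynd8 probe sets changed by -0.40 to -0.03 at day 4 of propiconazole, and none passed (limma, adjusted p = 0.38 to 0.97). With the mean over all 5, the change was -0.52 (limma, adjusted p = 0.020). These 4 did not move together at day 30 of propiconazole. On 1458617_at the arrays read 5.52, 6.04 and 5.97, against 6.37, 7.36 and 6.51 in controls, a change of -0.90 ± 0.28 and at least 1.53-fold lower. The others read 0.53 ± 0.41 (1456143_at), 0.11 ± 0.17 (1429415_at) and -0.09 ± 0.28 (1445827_at).

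**Figure D4:**
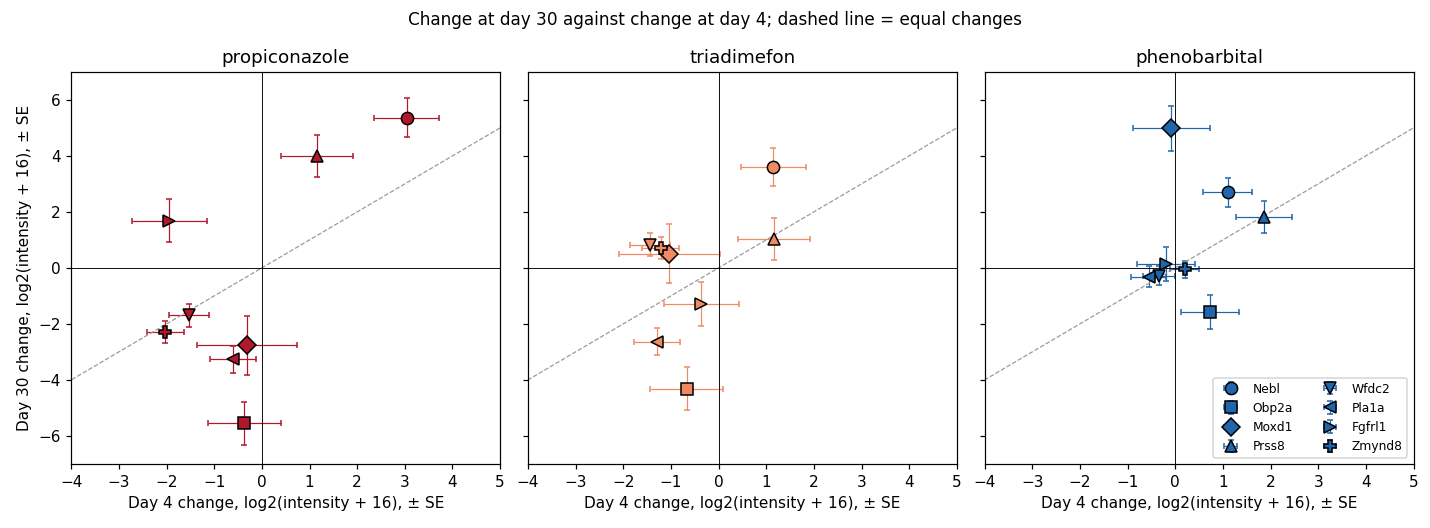
Change from own controls at day 4 (horizontal axis) against day 30 (vertical axis) for each gene and compound, both on the log2(intensity + 16) scale, for the brightest probe set. Obp2a under propiconazole (-5.55 at day 30 and -0.37 at day 4) and Moxd1 under phenobarbital (4.98 and -0.08) differ between the axes, while Zmynd8 and Wfdc2 under propiconazole are below 0 on both axes.

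Counted over the genes, day 4 of propiconazole changed 3 of 8 past the test, Nebl upward and Wfdc2 and Zmynd8 downward. Over all genes 13.9% were called (7.36% higher and 6.53% lower). With the spread taken from those 6 arrays alone, 0 of 8 and 6 of all genes were called, and without replicate 2 the count was 4 of 8, with Fgfrl1 added. In all, 4979 genes had an unadjusted p under 0.05 in the model of all arrays. Triadimefon and phenobarbital changed 0 of 8 at day 4, where 3.75% and 0.677% of all genes were called by limma, and 3226 and 1709 genes had an unadjusted p under 0.05. Between control livers of day 30 and day 4, 1 of 8 passed in the conazole experiment (Wfdc2, with 5.32% of all genes called) and 0 of 8 in the phenobarbital experiment (0% called, 668 genes at an unadjusted p under 0.05). The groups did not overlap for 2 of 8 genes at day 4 of propiconazole (16.2% of all genes), 2 at day 4 of triadimefon (19.4%) and 2 at day 4 of phenobarbital (5.1%). Between controls they did not overlap for 2 genes in the conazole experiment (21.7%) and 1 in the phenobarbital experiment (1.64%). The day 30 controls in these comparisons are the arrays against which the genes were chosen, and the word late in their label may have drawn on day 4. Obp2a, Moxd1, Pla1a and Prss8 did not pass under any compound at day 4, which does not show that they were unaffected.

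Genes of the same protein families or complexes, or of a linked function, were listed for each of the 8, 59 in all, of which 51 were measured. At day 30 of propiconazole 2 rose and 7 fell, 17.6% against 10.8% of all genes, with a median change of -0.21 against 0 over all genes. The largest change was in Lcn2, the acute-phase lipocalin that binds bacterial siderophores. It rose by 5.84 ± 1.34 under propiconazole, at least 18.4-fold (limma, adjusted p = 0.0042), and by 6.49 ± 1.34 under triadimefon, at least 29-fold (limma, adjusted p = 0.0037). Obp2a, of the same family, was lower in those livers. Of 5 neutrophil markers only S100a8 was called, higher in both groups and also at day 4 of propiconazole. At day 30 the list's summed intensity was 311 to 4840 on propiconazole arrays and 1655 to 2279 on triadimefon arrays. It was 358 to 433 on conazole controls. Camp, another of the 5, was at 0 on all triadimefon arrays of day 30 but not on all of those controls. The part of these cells in the Lcn2 change was not tested.

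Of the chromatin genes listed with Zmynd8, Kdm5c, a histone demethylase, fell by 1.72 with an SE of 0.42 at day 30 of propiconazole (limma, adjusted p = 0.0066). It was above background on 1 of 3 treated arrays, and its change was -0.91 without propiconazole replicate 1 (limma, adjusted p = 0.087) and -0.30 with the mean over its probe sets (limma, adjusted p = 0.080). Brd3, a bromodomain protein, changed by -0.61 ± 0.18 at day 30 (limma, adjusted p = 0.024) and by -0.96 ± 0.18 at day 4 (limma, adjusted p = 0.00073). It was also called lower in conazole controls of day 30 than in those of day 4. That difference was -0.75 on the arrays compared alone, where it did not pass (limma, adjusted p = 0.13). Brd2 also fell at day 4 of propiconazole, by 1.47 with an SE of 0.37 (limma, adjusted p = 0.0083). Among the growth factor genes listed with Fgfrl1 at day 30 of propiconazole, the ligand Fgf1 fell by 0.85 with an SE of 0.22 (limma, adjusted p = 0.012; 0.055 without control replicate 3) and the receptor Fgfr3 by 0.62 with an SE of 0.20 (limma, adjusted p = 0.040).

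The remaining calls at day 30 of propiconazole were small. Xirp1, an actin-binding protein listed with nebulette, rose by 0.95 ± 0.18 (limma, adjusted p = 0.00061) with all arrays below background. Cald1, an actin-binding regulator of contraction, changed by -0.31 ± 0.09 (limma, adjusted p = 0.020). Scnn1a, a subunit of the sodium channel that prostasin activates, changed by -0.70 ± 0.22 (limma, adjusted p = 0.035). Lipg, the endothelial lipase, changed by -0.95 ± 0.31 (limma, adjusted p = 0.046). Several of these calls were lost when 1 array was left out. Cald1 did not pass without control replicate 1 or 2 or propiconazole replicate 1 (limma, adjusted p = 0.071 to 0.079), and Scnn1a without control replicate 2 or 3 or propiconazole replicate 1 or 2 (0.053 to 0.23). Lipg did not pass without control replicate 1 or 2 or propiconazole replicate 1 or 3 (0.11 to 0.25), Fgfr3 without control replicate 1 or 3 or propiconazole replicate 2 or 3 (0.14 to 0.29), and Brd3 without control replicate 1 or 2 or propiconazole replicate 2 (0.055 to 0.13). With the mean over probe sets the calls of Brd3 (-0.35, limma, adjusted p = 0.22), Fgfr3 (-0.12, 0.79), Cald1 (-0.10, 0.82) and Lipg (-0.64, 0.11) were lost as well.

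At day 30 of triadimefon 1 listed gene rose, Lcn2, and 1 fell, the lipocalin Apod (-1.43 ± 0.38, limma, adjusted p = 0.023; 0.060 to 0.20 without control replicate 1 or 3 or triadimefon replicate 1 or 3), 3.92% against 5.4% of all genes. None was called under phenobarbital. At day 4 of propiconazole 1 rose, Xirp1, and 6 fell, 13.7% against 13.9% of all genes, and 4 were called without replicate 2. Those that fell included the liver membrane proteases Tmprss6 (-0.88 ± 0.18, limma, adjusted p = 0.0020) and Hpn (-1.21 ± 0.38, limma, adjusted p = 0.030), and the Hpn change was -0.19 without replicate 2 (limma, adjusted p = 0.20). The co-receptor Klb and the receptor Fgfr2 changed by -0.63 ± 0.21 and -0.44 ± 0.15 (limma, adjusted p = 0.040 and 0.049). Triadimefon called 1 gene at day 4, Fgfr3 (-0.68 ± 0.20, limma, adjusted p = 0.048), and phenobarbital none. When 1 array at a time was left out, the calls of Xirp1, Hpn, Fgfr2 and Klb were each lost without control replicate 1 or 2 (limma, adjusted p = 0.061 to 0.12). Those of Xirp1, Hpn and Fgfr2 were also lost without control replicate 3 (0.052 to 0.12) or propiconazole replicate 2 (0.20 to 0.23), and those of Xirp1, Fgfr2 and Klb without propiconazole replicate 1 (0.053 to 0.17). Without replicate 2 the change was 0.34 for Xirp1, -0.34 for Fgfr2, -0.77 for Klb and -1.05 for Brd3. With the mean over probe sets Fgfr2 was -0.10 (limma, adjusted p = 0.78) and Klb -0.32 (limma, adjusted p = 0.067). That of Fgfr3 under triadimefon was lost whichever of the 6 arrays compared was left out (0.061 to 0.14). Tmprss6, Brd2 and Brd3 at day 4 kept theirs, but without propiconazole replicate 2 the changes of Tmprss6 and Brd2 were -0.43 and -0.53.

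Across the 38 arrays, each gene's level was set against that of every gene above background, after subtracting the mean of the controls of the same experiment and day. The points share arrays and treatments, so the coefficients are a description. Nebl was most like Ccl9 (r = 0.907), Abcc4 (0.894) and Vti1b (0.885). The transporter Abcc4 was 5.09 higher than controls at day 30 of propiconazole, 2.87 higher at day 30 of triadimefon and 1.30 higher at day 30 of phenobarbital. Such genes were picked by likeness on these same arrays, so a shared pattern follows from the choice. Obp2a was most like Susd4 (r = 0.836), Lama3 (0.832) and Ppm1m (0.824), and Susd4 differed by -4.71, -2.74 and -0.33 in those comparisons. Prss8 was most like Slc23a1 (r = 0.855), Fam171a1 (0.838) and Mtln (0.831), and Fam171a1 differed by 3.04, 0.63 and 1.35.

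Pla1a was most like Uck2 (r = 0.860), Sox3 (0.857) and Irf5 (0.850). Wfdc2 was most like Zfand6 (r = 0.835), Pmf1 (0.821) and Atg2b (0.790), and Zmynd8 was most like Rfc5 (r = 0.824), Trim41 (0.801) and again Pmf1 (0.767). Fgfrl1 (Xpc at 0.752, Ddhd2 at 0.681, Fbxo9 at 0.674) and Moxd1 (Efhd2 at 0.599, Mst1 at 0.592, Fam199x at 0.576) had the weakest likeness to any other gene. Among the 8, the strongest coefficients were 0.72 between Obp2a and Pla1a, 0.71 between Wfdc2 and Zmynd8, 0.71 between Nebl and Prss8 and -0.71 between Nebl and Obp2a. These coefficients carry no test.

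Prostasin and Wfdc2 are known products of epithelia, and markers of bile duct epithelium moved with some groups. Epcam and Sox9 were called higher at both days of propiconazole, Sox9 also at day 4 of triadimefon and of phenobarbital, and Epcam also in conazole controls of day 30 against day 4. At day 4 the summed intensity of the 5 measured markers was 495 to 578 on propiconazole arrays, 496 to 678 on triadimefon arrays and 346 to 410 on conazole controls, and 266 to 1007 on phenobarbital arrays and 227 to 266 on their controls. At day 30 it was 721 to 824 on propiconazole arrays, 550 to 641 on triadimefon arrays and 447 to 589 on conazole control arrays. Krt7, which marks these cells, was at 0 on all arrays of day 30 in the conazole experiment, controls included, and Krt19 was at 0 on all propiconazole arrays of day 30. In the phenobarbital experiment the sums at day 30 were 255 to 353 on phenobarbital arrays and 261 to 307 on controls. The part of these cells in the Prss8 and Wfdc2 values was not tested.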

How the data were processed

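Livers of 38 mice were measured on Affymetrix mouse 430 2.0 arrays, 1 array per mouse, and titles call the replicates biological. Per the labels' protocols, total RNA was extracted with Tri Reagent, cleaned on a column, amplified and labelled with biotin. The authors deposited a linear intensity for every probe set of every array, 21.15% of them below 0. The sources used here do not name the software behind them. Array medians ran from 12.5 to 36.1.

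From the deposited intensities, values were quantile normalized, set to 0 where negative, and turned into log2(value + 16). Of 45101 probe sets, 34958 carried 1 symbol and 932 several in the platform annotation. The brightest probe set stood for a gene, 465 constant genes were left out, and 17729 were tested. limma 3.58.1 in R 4.3.3 fitted 1 mean per group to all arrays with an intensity trend (28 residual and 2.91 prior degrees of freedom), two-sided, with Benjamini-Hochberg adjustment over all genes and calls at 0.05. Adjusted p-values in the text are from this fit unless another setting is named. Those of a gene's other probe sets are from the same model fitted to, and adjusted over, 33618 probe sets. The scripts were tested on simulated data. Arrays give no read depth, and their number limits the precision. A fold given as at least N divides the brighter group's mean by that of the dimmer group with its levels raised to background where they fell under it, on normalized log2 values.

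The 8 genes, the list of relatives and the marker lists were chosen with earlier results of these data known. Genes named are the 8 members, for each the 3 genes of highest correlation among those above background (no clone, Riken, Gm, LOC or EST names), plus the relatives called in a comparison, at most the 2 of largest change per member and comparison. Upstream sequences are from RefSeq (GRCm38.p6), which had entries for 6 of the 8. Same-numbered replicates of treated and control groups correlated at -0.11 to 0.16, and in no comparison did all exceed 0.1, so they were not treated as pairs. Alternatives were other normalizations, pseudocounts and probe set summaries, genes above background, no intensity trend, a replicate block, the arrays compared alone, and each replicate left out.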

Additional observations from a re-analysis of the deposited data

Results flagged for a closer look

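In groups of 5 mice, a level far from the others was looked for in 44 groups of probe set values, and 3 were found, where chance gives about 1 in 20. Prss8 on phenobarbital day 4 replicate 4 was 6.67, with the other 4 between 7.35 and 7.58. Zmynd8 probe set 1429415_at on phenobarbital day 4 replicate 5 was 6.17, with the others between 6.45 and 6.57. Zmynd8 probe set 1445827_at on phenobarbital control day 30 replicate 4 was 5.51, with the others between 6.17 and 6.40.

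At day 30 some genes moved in opposite directions on every array under the conazoles, which share controls. Wfdc2 changed by -1.70 under propiconazole and 0.83 under triadimefon. Zmynd8, on its brightest probe set 1426614_at, changed by -2.29 under propiconazole and 0.70 under triadimefon. These differences were not tested, since the genes were chosen on these contrasts and the doses differed. The same Zmynd8 probe set under triadimefon also changed direction between days, at 0.70 on day 30 and -1.21 on day 4, and this difference was not tested. The other 4 Zmynd8 probe sets changed by -0.05 to 0.49 under triadimefon at day 30 and by -0.20 to 0.14 at day 4.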

How the results depend on the processing

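No called change turned its direction under any alternative run. Changes that were not called did. With a replicate left out, Moxd1 ran from -0.93 to 0.04 and Prss8 from -0.09 to 2.04 at day 4 of propiconazole, Obp2a from -1.38 to 0.28 and Fgfrl1 from -0.61 to 0.02 at day 4 of triadimefon, and Moxd1 from -0.22 to 0.01 and Fgfrl1 from -0.38 to 0.02 at day 4 of phenobarbital. Between conazole controls Nebl ran from -0.05 to 0.42, Prss8 from -0.59 to 0.13 and Pla1a from -0.98 to 0, and between phenobarbital controls Prss8 from -0.43 to 0.27. On values as deposited Nebl was 0.01 and Prss8 0 between phenobarbital controls. With the replicate block Prss8 was 1.14 and Zmynd8 0.09 between conazole controls. Of the 8 genes, the number called at day 4 of propiconazole was 3 and became 0 with the spread from the arrays compared alone (2 to 4 with a replicate left out). For triadimefon at day 4 it was 0, and became 2 with pseudocount 64 and 1 among genes above background (0 to 2 with a replicate left out). For phenobarbital at day 4 it was 0, and 2 with the arrays compared alone. Between conazole controls it was 1, and 0 on values as deposited and on the arrays compared alone (0 to 1 with a replicate left out). Same-numbered replicates were not treated as pairs: at most 2 of 3 arrays in a comparison correlated best with their own number. Groups of 3 are too small for this check to exclude pairing. Between conazole controls 943 of all genes were called, and 232 with the replicate block. With the replicate block, 1 of 8 genes was called at day 4 of triadimefon, and listed relatives called were 4 at day 4 of propiconazole, 0 at day 4 of triadimefon and 1 at day 30 of triadimefon.
Relatives called at day 4 of propiconazole were 7, and 13 on values as deposited and 0 on the arrays compared alone (3 to 14 with a replicate left out). At day 4 of triadimefon they were 1, and 0 on values as deposited, with median centring, quantile normalization within each experiment, pseudocount 4, the mean over probe sets, no trend or the arrays compared alone, and 2 among genes above background (0 to 4 with a replicate left out). For phenobarbital they were 0 at day 4 (0 to 1) and 0 at day 30, where the arrays compared alone gave 4. At day 30 of propiconazole they were 9, and 4 on values as deposited or with median centring and 5 on the arrays compared alone (5 to 11). At day 30 of triadimefon they were 2, and 1 among genes above background and on the arrays compared alone (1 to 3).
The pseudocount sets the size of day 30 changes, given for 64 and 4: Nebl 3.75 and 6.68, Obp2a -3.68 and -7.43, Prss8 2.42 and 5.5, Wfdc2 -0.84 and -2.59, Pla1a -2.02 and -4.36 and Zmynd8 -1.16 and -3.58 under propiconazole, and Moxd1 3.20 and 6.75 under phenobarbital. With the mean over probe sets, Nebl was 2.79 and Zmynd8 -0.53. Zmynd8 ran from -2.92 to -1.98 with a replicate left out.
Calls over all genes at day 4 of propiconazole were 1305 higher and 1158 lower, against 224 and 2365 on values as deposited and 579 and 1174 with median centring. At day 4 of triadimefon they were 373 and 292, against 1555 and 112, and 572 and 174. Between conazole controls they were 493 and 450, against 527 and 151, and 221 and 823. With 3 or 5 mice per group and 3 of the 8 genes below background on average, changes of dim genes are bounds.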
